A study of Mus musculus with 14 samples.

Results

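The 10 genes described here mark inhibitory interneurons in the mouse brain and were taken as listed rows of a table of 23375 genes: Gad1, Gad2 and Slc32a1 for the making and packaging of GABA, Sst, Npy, Vip and Cck for the peptides, and Lhx6, Dlx1 and Dlx2 for the lineage. All 10 were found and all 10 passed the filter for testing, at least 1 FPKM in at least 2 libraries, together with 14322 genes in all. Vip passed only through its adult values. FPKM, the unit of the deposited table, counts fragments scaled to the length of a transcript and to all mapped fragments of a library, so levels of different genes can be set side by side.

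The 14 libraries were poly(A) RNA-seq of mouse brain in 7 groups of 2. Adult KO2 and E19.5 KO2 brains lack the H19-DMR and the IG-DMR, adult KO3 brains lack the Rasgrf1-DMR as well, and E19.5 KO7 brains lack 7 DMRs, those of Gnas, Grb10, Igf2r, Kcnq1, Nespas, Peg3 and Snrpn; a DMR is a differentially methylated region that controls imprinted genes. The wild-type groups were adult set 1, adult set 2 and E19.5 wild type, E19.5 being an embryonic stage shortly before birth. In the study, KO2 and KO3 animals are bimaternal and KO7 animals bipaternal. The knockout mice came from haploid embryonic stem cells with edited DMRs, while neither strain, age in days, sex, brain region nor number of cell clones was given for any group. No label ties a library to its own animal, so p-values measure the spread between libraries, which may be technical. The deleted regions are not transcripts, so no targeted gene could be read to check the genotypes.

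GABA is the main inhibitory transmitter of the forebrain. It is made from glutamate by the decarboxylases GAD67 (Gad1) and GAD65 (Gad2) and loaded into synaptic vesicles by the transporter VGAT (Slc32a1). Cortical interneurons are born in the ganglionic eminences of the embryo, where the homeobox factors Dlx1 and Dlx2 start the GABA programme and the LIM homeobox factor Lhx6 directs the medial lineage that later makes somatostatin and parvalbumin cells. The peptides sort the mature cells into classes: somatostatin (Sst), neuropeptide Y (Npy), vasoactive intestinal peptide (Vip) and cholecystokinin (Cck), though Npy is also made elsewhere in the brain and Cck is abundant in excitatory cortical neurons.

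Promoters of the 4 peptide genes are shown because these genes split by stage: Vip and Cck were higher in adult brain, while Sst and Npy did not pass the test. Each run covers 250 bases before and 50 bases after the RefSeq start site (build GRCm38.p6), 5′ to 3′ on the gene's strand. Capitals mark TGACG or its complement CGTCA, the core letters of the cAMP response element, an element that the factor CREB is known to bind.
Sst, chr16:23890795-23891094, minus strand: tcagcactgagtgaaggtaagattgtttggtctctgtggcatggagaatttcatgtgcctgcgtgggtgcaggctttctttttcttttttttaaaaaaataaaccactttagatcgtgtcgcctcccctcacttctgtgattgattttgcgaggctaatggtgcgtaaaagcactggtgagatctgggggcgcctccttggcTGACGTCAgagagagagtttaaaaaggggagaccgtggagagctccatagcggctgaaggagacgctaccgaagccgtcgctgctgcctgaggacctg
Vip, chr10:5638968-5639267, plus strand: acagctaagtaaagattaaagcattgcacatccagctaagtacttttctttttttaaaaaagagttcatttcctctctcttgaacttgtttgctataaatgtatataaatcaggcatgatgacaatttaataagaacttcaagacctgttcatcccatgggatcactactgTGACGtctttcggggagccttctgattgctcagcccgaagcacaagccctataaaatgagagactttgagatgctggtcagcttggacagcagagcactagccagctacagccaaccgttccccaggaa
Cck, chr9:121495645-121495944, minus strand: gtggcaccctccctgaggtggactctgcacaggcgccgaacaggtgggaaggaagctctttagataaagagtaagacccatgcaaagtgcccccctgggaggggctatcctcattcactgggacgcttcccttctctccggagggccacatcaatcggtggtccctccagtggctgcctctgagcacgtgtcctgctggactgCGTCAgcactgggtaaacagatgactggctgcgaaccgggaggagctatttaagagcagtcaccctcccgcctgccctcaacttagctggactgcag
Npy, chr6:49822460-49822759, plus strand: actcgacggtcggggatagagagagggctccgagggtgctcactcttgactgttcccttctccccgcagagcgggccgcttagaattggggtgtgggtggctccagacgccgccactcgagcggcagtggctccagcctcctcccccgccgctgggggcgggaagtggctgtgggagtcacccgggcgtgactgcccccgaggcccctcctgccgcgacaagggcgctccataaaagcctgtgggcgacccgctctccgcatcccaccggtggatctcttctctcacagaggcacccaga
TGACG or CGTCA, searched on both strands, lay 47 bases before the start site in Cck and 79 bases before it in Vip. In Sst a pair of overlapping matches, 48 and 45 bases before the start, made up the full palindrome TGACGTCA, and the Npy window held neither. Over all 32851 promoter windows of this length, 20.8% held the short form and 1.79% the palindrome. Among the 12 windows of the 10 genes, 5 held the short form (also Gad2, 33 bases before its start, and Dlx2, 58 bases before), and Sst was the gene with the palindrome. The homeobox motif TAATTA, present in 5.29% of windows, was in no window of the 10 genes. TATAAA (13.6% of windows, both strands) was in those of Gad1, Lhx6 and Vip, and CACGTG (7.15%) in those of Cck and Dlx2. RefSeq places 6 of the 10 genes (Gad1, Gad2, Slc32a1, Lhx6, Dlx1, Dlx2) on chromosome 2, where Dlx1 and Dlx2 are neighbours with the antisense gene Dlx1as starting between them. Strand use in counting was not stated, so reads of Dlx1as and Dlx1 may not have been told apart.

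**Figure D1:**
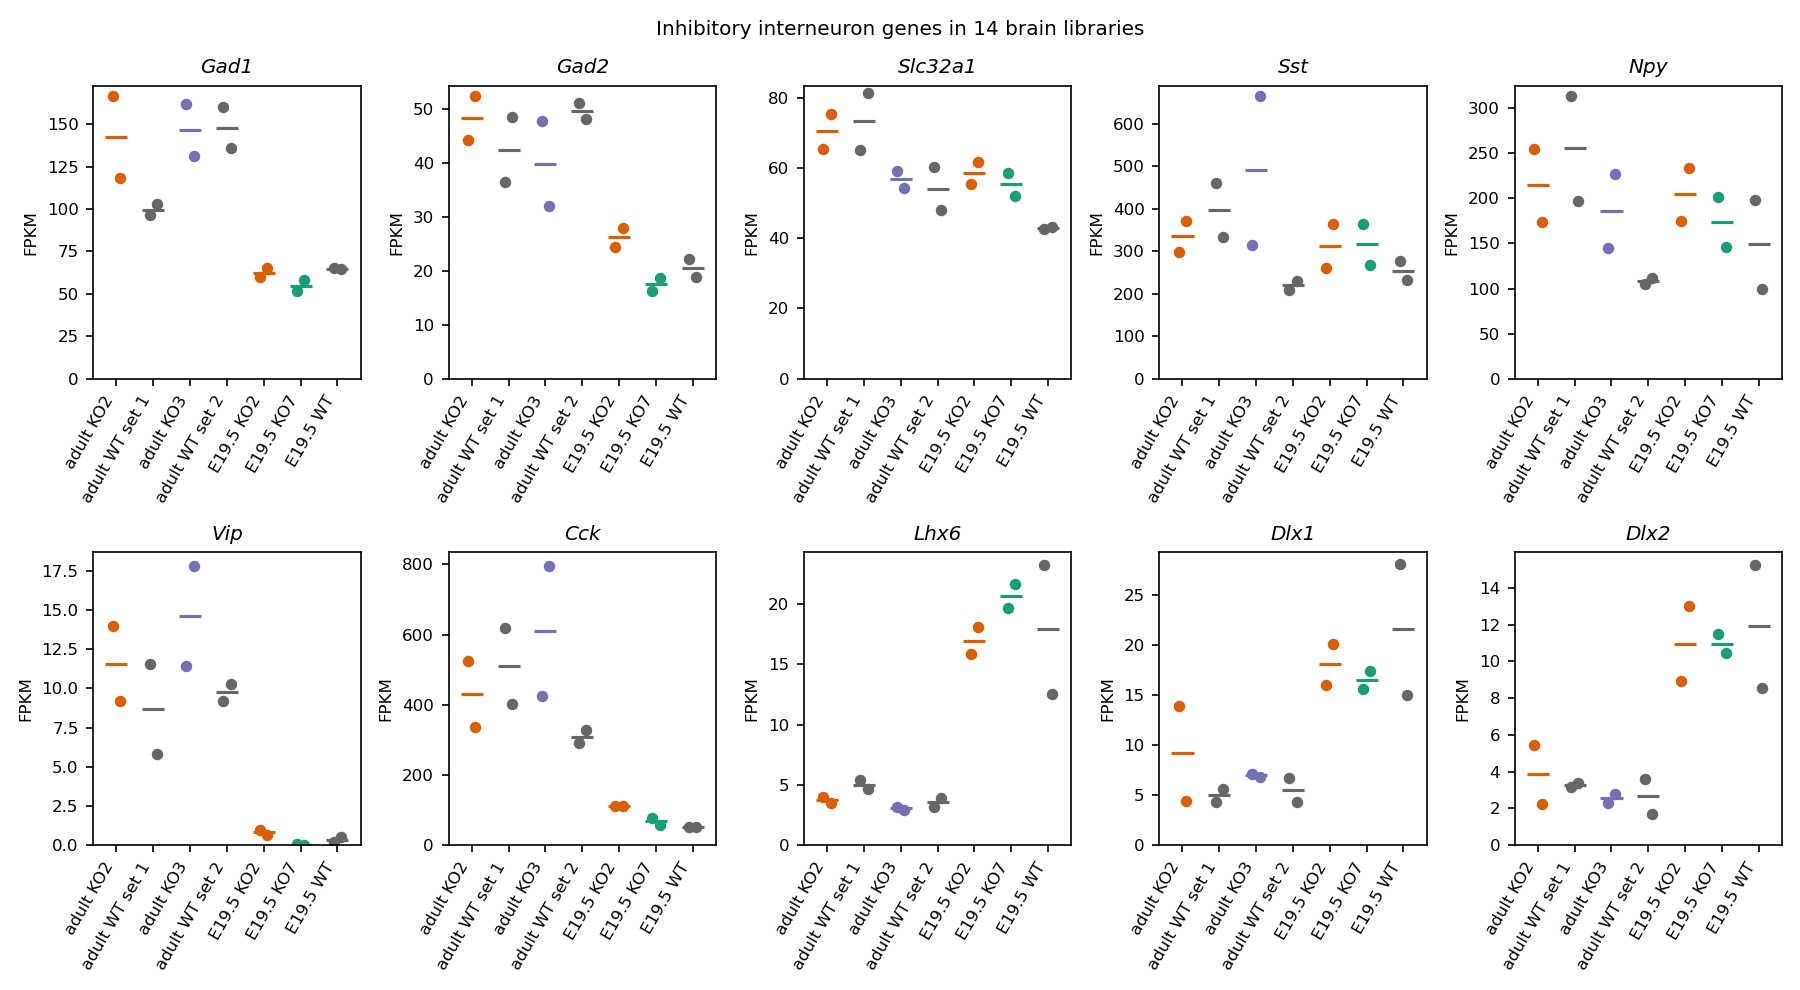
FPKM (linear axes from 0) of the 10 genes in each of 14 libraries; points are libraries and bars are means of 2. Cck and Vip stood higher and Lhx6, Dlx1 and Dlx2 lower in adult than in E19.5 brain, while Sst and Npy overlapped between the stages.

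Some libraries carried values of other brain regions that bear on what follows. Adult KO3 and wild-type set 2 libraries held cerebellar transcripts, with Pcp2, a Purkinje cell gene, at 155 to 372 FPKM and Gabra6, a granule cell receptor subunit, at 29.1 to 59.1 FPKM. In adult KO2 and wild-type set 1 libraries Pcp2 was 0 to 6.54 FPKM and Gabra6 0 to 0.127 FPKM. Purkinje cells make GABA, so Gad1, Gad2 and Slc32a1 are not particular to interneurons in such tissue. The same 4 libraries listed 9994 genes at 0 and held no gene whose highest value was between 0 and 1.02 FPKM, so a 0 in them may be a removed low value. Adult KO2 replicate 1 had little hypothalamic RNA, with a summed level of 12 marker genes of 24.4 FPKM against 463.8 FPKM in replicate 2. E19.5 KO7 libraries had Xist, the RNA of the inactive X chromosome, at 0.0159 and 0.0403 FPKM, and E19.5 KO2 libraries at 1.5 and 84.0 FPKM, against 117 and 106 FPKM in E19.5 wild type. The sex that this transcript marks and the KO7 genotype cannot be told apart. For the KO2 libraries, from bimaternal animals, no sex was read from Xist. E19.5 KO2 replicate 1, with the low KO2 Xist value, adult KO3 replicate 2 and set 2 replicate 2 had stood apart from their groups in earlier results of these data, and calls that change without them are given as such.

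Among the 3 GABA genes Gad1 was the most abundant in every adult library, and its level was higher in adult than in embryonic brain. Gad1 stood at 96.4 and 103 FPKM in adult wild-type set 1, against 65.4 and 64.4 FPKM in E19.5 wild type. The libraries did not overlap, and the difference was 0.61 on the log2(FPKM + 1) scale (SE 0.17; limma adjusted p = 0.00935 over all tested genes). Gad2 stood at 36.5 and 48.4 FPKM in adult set 1, against 22.0 and 18.9 FPKM in E19.5 wild type, a log2 change of 1.01 (SE 0.19, adjusted p = 0.000971). Slc32a1 was at 65.3 and 81.6 FPKM in adult set 1, against 42.8 and 43.2 FPKM in E19.5 wild type, a log2 change of 0.75 (SE 0.15, adjusted p = 0.0012). All 3 rose. The median change of all tested genes in this comparison was -0.15 as deposited and -0.03 after median-of-ratios scaling, which left the calls of the 3 genes in place. The Gad1 call was lost without adult set 1 replicate 2 (adjusted p = 0.0552), and with set 2 as the adult group, chosen after seeing the data, the Slc32a1 call was lost (0.32, adjusted p = 0.0817) and the Gad1 change was 1.17.

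In bulk brain, a change in the number of cells of a type and in RNA per cell cannot be told apart. Set against the geometric mean of 10 pan-neuronal genes in the same library, Gad1 came to 0.440 and 0.514 in adult set 1, against 0.509 and 0.440 in E19.5 wild type, so on that scale the groups overlapped. In adult set 2 it was 0.719 and 0.673, above both E19.5 wild-type values. In KO2 brains the same ratio was 0.798 and 0.575 in adults, against 0.388 and 0.387 at E19.5, with no overlap. On this scale Gad2 overlapped in set 1, at 0.167 and 0.241, against 0.172 and 0.129 in E19.5 wild type. It lay higher in set 2 (0.229 and 0.238) and in KO2 (0.211 and 0.255, against 0.159 and 0.166 at E19.5). Slc32a1 came to 0.3335 and 0.2955 in E19.5 wild type. Adult set 1 overlapped with it (0.299 and 0.407), and set 2 lay lower (0.271 and 0.239). In KO2 Slc32a1 overlapped between stages, at 0.314 and 0.3676 in adults, against 0.361 and 0.3675 at E19.5. The pan-neuronal genes themselves moved with stage: 7 of 10 rose and 2 fell in wild type.

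KO2 brains were sampled at both stages, which gives a second reading of stage. Gad1 stood at 167 and 118 FPKM in adult KO2, against 59.7 and 65.0 FPKM in E19.5 KO2, a log2 change of 1.16 (SE 0.17; limma adjusted p = 0.000202). Gad2 rose there too, with 44.2 and 52.4 FPKM in adults and 24.4 and 27.9 FPKM at E19.5 (log2 change 0.86, adjusted p = 0.00334). For Slc32a1 the values were 65.7 and 75.6 FPKM in adult KO2, against 55.6 and 61.8 FPKM in E19.5 KO2, and the log2 change of 0.26 (95% interval -0.06 to 0.59) did not pass (adjusted p = 0.163), though it did after median-of-ratios scaling (0.34, adjusted p = 0.0485). The difference in the stage change between KO2 and wild type was itself tested in limma and passed for 0 of the 10 genes, beside 0.0628% of all tested genes, with 3 unadjusted p under 0.05 (Cck, Slc32a1 and Gad1). The difference was -1.33 for Cck (adjusted p = 0.221), -0.49 for Slc32a1 (adjusted p = 0.313) and 0.55 for Gad1 (adjusted p = 0.32).

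Cck and Vip gave the steepest stage changes among the 10 genes. Cck stood at 617.5 and 401 FPKM in adult set 1, against 50.9 and 51.9 FPKM in E19.5 wild type, so every adult value was far above every embryonic one. The log2 change was 3.25 (SE 0.31; limma adjusted p = 6.54e-06), and in KO2 it was 1.92 (adjusted p = 0.000384), with 524 and 338 FPKM in adults and 110.1 and 110.7 FPKM at E19.5. Vip was at 11.6 and 5.80 FPKM in adult set 1, against 0.202 and 0.497 FPKM in E19.5 wild type. It rose by a log2 change of 2.79 in wild type (limma adjusted p = 1.33e-05) and 2.78 in KO2 (limma adjusted p = 1.9e-05). Only the adult values carried Vip through the filter, which favours the direction seen, so these p-values are given as description. With a pseudocount of 0.1, which weighs values under 1 FPKM more, the Vip changes were 4.29 in wild type and 3.68 in KO2, and that of Cck in wild type was 3.27. E19.5 KO7 had the lowest Vip values, 0.0562 FPKM in replicate 1 and listed at 0 in replicate 2.

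Sst and Npy were abundant at both stages, and neither passed between them. Sst stood at 459 and 334 FPKM in adult set 1, against 276 and 232 FPKM in E19.5 wild type. Its log2 change of 0.63 (95% interval -0.08 to 1.33) did not pass (limma adjusted p = 0.117). Npy stood at 314 and 198 FPKM in adult set 1, against 199 and 99.8 FPKM in E19.5 wild type, which overlapped (log2 change 0.82, 95% interval 0.05 to 1.59, adjusted p = 0.0668). In KO2 the stage changes were 0.11 for Sst and 0.06 for Npy, with adjusted p of 0.803 and 0.907 and intervals of -0.60 to 0.81 and -0.71 to 0.83. With wild-type set 2 as the adult group, a choice made after seeing the data, both changes turned negative, -0.21 for Sst and -0.38 for Npy, and neither passed. Against set 1, Sst passed under quantile scaling (adjusted p = 0.0246) and in a fit of the 4 libraries alone (adjusted p = 0.0248) and without the 3 libraries that stood apart (adjusted p = 0.032), and Npy after median-of-ratios scaling (0.97, adjusted p = 0.0458). Npy also passed without adult set 1 replicate 2 (1.15, adjusted p = 0.0423) and without E19.5 wild-type replicate 1 (1.31, adjusted p = 0.0153), and its change with 1 library left out ranged from 0.33 to 1.31.

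Ratios within a library do not depend on how libraries were scaled, and those of Cck to Npy and to Sst separated the stages in every library. Sst over Npy overlapped, at 1.17 to 2.93 in the adult libraries and 1.39 to 2.325 at E19.5. Cck over Npy was 1.94 to 3.51 across the 8 adult libraries, against 0.256 to 0.628 across the 6 E19.5 libraries. Cck over Sst was 0.909 to 1.77 in the adult libraries, against 0.184 to 0.422 at E19.5. Cck was thus below Sst in all 6 embryonic libraries and near or above it in the adult ones. These ratios are given as a description, with no test.

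The lineage factors ran the other way. Lhx6 stood at 5.42 and 4.63 FPKM in adult set 1, against 23.3 and 12.5 FPKM in E19.5 wild type, a log2 change of -1.59 (SE 0.22; limma adjusted p = 0.000112). Dlx1 was at 4.34 and 5.58 FPKM in adult set 1, against 28.0 and 15.0 FPKM in E19.5 wild type (log2 change -1.86, adjusted p = 0.00204). Dlx2 followed, at 3.17 and 3.38 FPKM in adult set 1 and 15.2 and 8.55 FPKM in E19.5 wild type (log2 change -1.54, adjusted p = 0.00277). All 3 fell, and in none of them did any of the 8 adult libraries reach the lowest of the 6 embryonic ones.

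In KO2 the fall was -1.91 for Lhx6 (limma adjusted p = 4.07e-05), -1.37 for Dlx2 (adjusted p = 0.00695) and -1.08 for Dlx1 (adjusted p = 0.0427). Dlx1 was at 13.9 and 4.43 FPKM in adult KO2, against 16.0 and 20.1 FPKM in E19.5 KO2. Replicate 1 of adult KO2, the library with little hypothalamic RNA, had the highest Dlx1, Dlx2 and Gad1 values of all adult libraries, and the part of regional content in this was not tested. Without replicate 2 of adult KO2, the Dlx1 change came to -0.35 (adjusted p = 0.433) and the Dlx2 change to -0.87 (adjusted p = 0.0763). Without replicate 1 they were -1.81 (adjusted p = 0.00177) and -1.86 (adjusted p = 0.00239). Leaving out either E19.5 KO2 library also ended the Dlx1 call, and so did leaving out replicate 2 for Dlx2 (adjusted p = 0.0644). The Dlx1 call was also lost with no filter, under both other scalings and in a fit of these 4 libraries alone (adjusted p of 0.0512 to 0.0769), and without the 3 libraries that stood apart (adjusted p = 0.0912).

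In wild type, adult set 1 over E19.5, 8 of the 10 genes passed (5 higher, 3 lower), beside 56% of all tested genes (21.9% higher and 34.1% lower). In KO2 7 of the 10 passed, 4 higher and 3 lower, beside 49.3% of all tested genes (20.7% higher and 28.6% lower). With so many genes passing, the count alone says little about the 10. Vip, among the higher genes in both counts, entered the test only through its adult values. Over the 10 genes the median change was 0.69 in wild type and 0.19 in KO2, against medians of -0.15 and -0.09 over all tested genes.

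**Figure D2:**
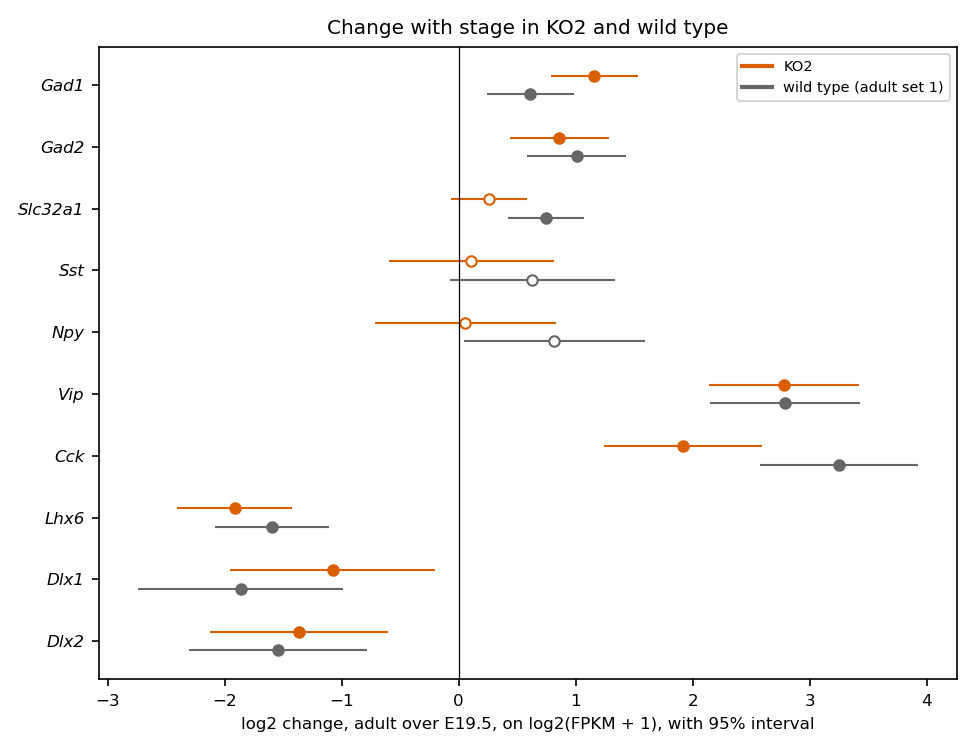
Log2 change from the limma fit on log2(FPKM + 1), adult over E19.5, for KO2 (upper mark of each pair) and wild type (lower mark), with 95% intervals; filled points passed an adjusted p of 0.05. Cck, Vip, Gad1 and Gad2 lay right of 0 and Lhx6, Dlx1 and Dlx2 left of it in both genotypes.

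Wider lists of genes from the same lineage and pathway were counted in the same fit. Of 26 ganglionic eminence factors, 19 were lower in adults and none higher, beside 34.1% and 21.9% of all tested genes. The median log2 change was -1.04. Of the 23 factors other than Lhx6, Dlx1 and Dlx2, 16 were lower. They included Nr2f2, a factor of the caudal eminence, at 4.96 ± 1.88 FPKM in adult set 1 and 24.9 ± 0.639 FPKM in E19.5 wild type (SD, n = 2 each; limma adjusted p = 8.59e-06). Maf, a factor of medial eminence interneurons, was at 3.93 ± 0.789 FPKM in adults and 10.8 ± 1.67 FPKM at E19.5 (adjusted p = 3.31e-05). In KO2 the count was also 19 of 26 lower and none higher, beside 28.6% and 20.7% of all tested genes.

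Of 9 genes for GABA synthesis, transport and breakdown, 5 were higher in adult wild-type set 1 and none lower, beside 21.9% and 34.1% of all tested genes. Gad1, Gad2 and Slc32a1 are 3 of these 5, and 2 of the 6 other genes were higher, among them the GABA transaminase gene Abat (log2 change 1.21, limma adjusted p = 0.00183). Among 12 peptide genes 6 were higher and 2 lower. Penk (enkephalin) was at 244 ± 21.8 FPKM in adult set 1, against 12.9 ± 4.81 FPKM in E19.5 wild type (SD, n = 2 each), and Tac2 (neurokinin B) at 21.9 ± 6.44 FPKM, against 1.30 ± 0.264 FPKM. Grp, the gastrin-releasing peptide gene, was lower, at 6.32 ± 1.94 FPKM in adults and 18.4 ± 0.0111 FPKM at E19.5.

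The calcium-binding, channel and surface markers had 6 higher and 7 lower of 21, shares near those over all tested genes. Pvalb and Lamp5, named for their small p, are among the 6 higher ones, and the 7 lower ones are not named. Pvalb, which marks fast-spiking interneurons and Purkinje cells, was at 51.8 ± 2.17 FPKM in adult set 1, against 1.11 ± 0.675 FPKM in E19.5 wild type (SD, n = 2 each; limma adjusted p = 1.15e-06). Lamp5, a marker of neurogliaform cells, was at 66.0 ± 23.0 FPKM in adults and 2.32 ± 1.02 FPKM at E19.5 (adjusted p = 2.62e-06).

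Other cell types moved with stage as well. All 11 activity-dependent genes, all 8 microglial genes and 8 of 11 myelin genes were higher in adult set 1. Of 10 progenitor genes 8 were lower. Over all tested genes 21.9% were higher and 34.1% lower. Of 12 excitatory neuron markers, Camk2a and Slc17a7, genes of glutamatergic synapses, were higher and 5, among them the developmental factor Neurod6, were lower. Of 12 markers of striatal projection neurons, which make GABA and, in part, enkephalin, 10 were higher, Penk among them, and 2 lower, with a median log2 change of 1.77. Their summed level was 788.5 to 838 FPKM in adult set 1 and 151 to 237 FPKM in E19.5 wild type. The part of these cell types in the stage changes was not tested.

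**Figure D3:**
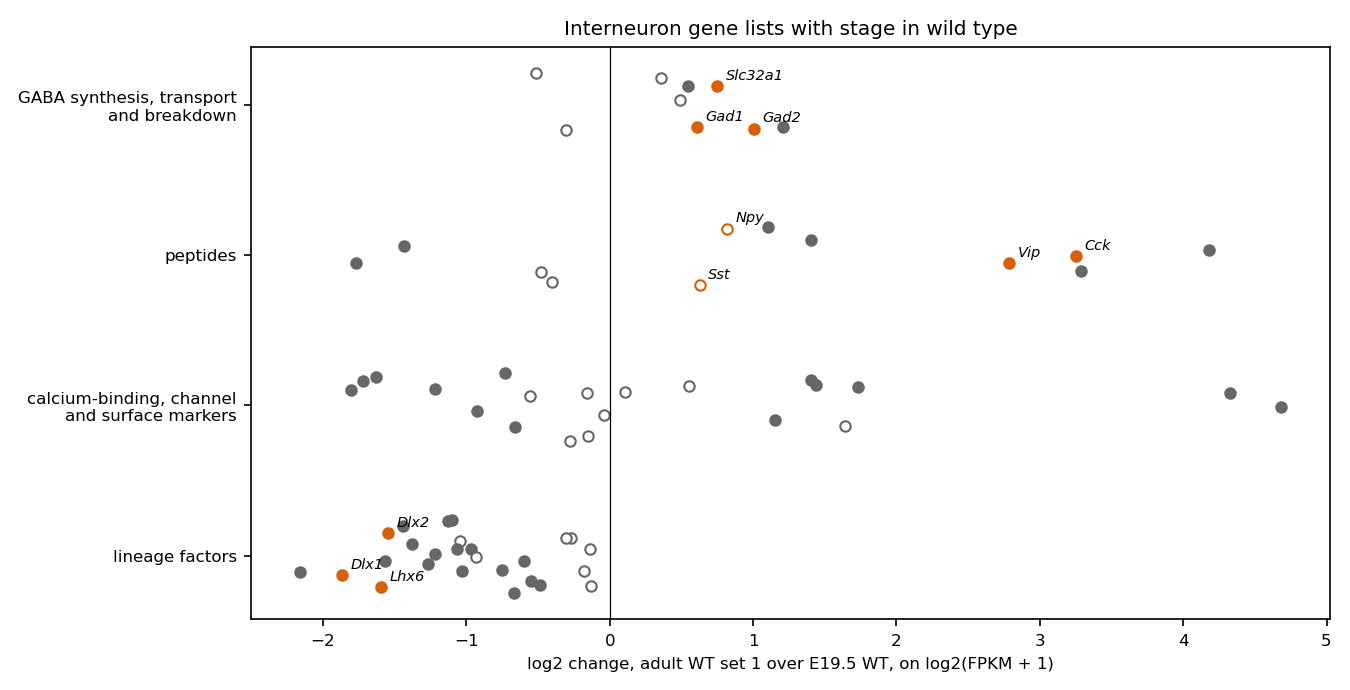
Log2 change, adult wild-type set 1 over E19.5 wild type, of each tested gene in 4 interneuron gene lists (vertical scatter within a list has no meaning); orange marks the 10 genes described here, and filled points passed an adjusted p of 0.05. No lineage factor that passed lay right of 0.

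At E19.5 neither knockout moved any of the 10 genes past the threshold. In KO2 against wild type 0 of 10 passed in limma, beside 1.28% of all tested genes, while 2 had an unadjusted p under 0.05. Cck came closest, with 110.1 and 110.7 FPKM in KO2 brains and 50.9 and 51.9 FPKM in wild type. The libraries of each group lay close together and did not overlap with the other group, but the log2 change of 1.09 (95% interval 0.41 to 1.76) had an adjusted p of 0.12 over all genes. It passed under quantile scaling (1.13, adjusted p = 0.0434) and in a fit of the 4 compared libraries alone (adjusted p = 0.00183). Slc32a1 was the other, at 55.6 and 61.8 FPKM in KO2, against 42.8 and 43.2 FPKM in wild type (log2 change 0.44, 95% interval 0.11 to 0.76, adjusted p = 0.178), and it passed only in the 4-library fit (adjusted p = 0.0446).

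In E19.5 KO7 against wild type 0 of 10 passed, beside 4.45% of all tested genes, with 1 unadjusted p under 0.05, that of Slc32a1. Its 58.8 and 52.2 FPKM in KO7 lay above the 42.8 and 43.2 FPKM in wild type (log2 change 0.36, 95% interval 0.03 to 0.68; limma adjusted p = 0.194). Both knockout comparisons use the same wild-type libraries. Slc32a1 over Gad1 within a library was 0.931 and 0.950 in KO2 and 1.14 and 0.901 in KO7, against 0.655 and 0.671 in wild type, so the 4 knockout libraries lay above both wild-type ones. Slc32a1 over Gad2 was 2.28 and 2.21 in KO2 and 3.61 and 2.81 in KO7, against 1.94 and 2.29 in wild type, so on that ratio KO2 lay within the wild-type values. Vip passed in KO7 under a pseudocount of 0.1 (log2 change -1.76, adjusted p = 0.0479), a setting that stretches values under 1 FPKM.

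Lhx6, Dlx1 and Dlx2 in the knockouts lay mostly between the wild-type libraries, which were themselves far apart. Dlx1 was at 16.0 and 20.1 FPKM in KO2 and 15.6 and 17.4 FPKM in KO7, against 28.0 and 15.0 FPKM in wild type. The 95% intervals were -1.06 to 0.69 in KO2 and -1.18 to 0.57 in KO7, so changes of about 1 on the log2 scale were not resolved. For Lhx6 the intervals were -0.51 to 0.47 in KO2 and -0.23 to 0.75 in KO7. Sst had intervals of -0.42 to 0.99 in KO2 and -0.40 to 1.01 in KO7.

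The knockouts were also compared with each other. In KO7 against KO2 0 of 10 passed in limma, beside 5.63% of all tested genes, with 3 unadjusted p under 0.05. Gad2 was at 16.3 and 18.6 FPKM in KO7, against 24.4 and 27.9 FPKM in KO2 (log2 change -0.56, 95% interval -0.98 to -0.14, adjusted p = 0.117), and Cck at 78.1 and 56.0 FPKM in KO7, against 110.1 and 110.7 FPKM in KO2 (-0.73, adjusted p = 0.19). Vip was the third (-0.81, adjusted p = 0.131). It was at 0.0562 and 0 FPKM in KO7, against 0.973 and 0.640 FPKM in KO2, all under the 1 FPKM of the filter. With a pseudocount of 0.1, which stretches such values, it passed at -2.83 (adjusted p = 0.00553). Gad2 and Cck passed in the fit of these 4 libraries alone, with adjusted p of 0.0297 and 0.0293.

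No gene of the GABA, peptide or lineage lists passed in either knockout against E19.5 wild type. Among the 21 calcium-binding, channel and surface markers, Cxcr4, a chemokine receptor that guides migrating interneurons and is also made by other cells, was higher in KO7, at 17.4 FPKM on average against 5.69 FPKM in wild type (log2 change 1.46, limma adjusted p = 0.00533). In the same comparison 6 of 7 meningeal, 4 of 10 progenitor and 4 of 9 endothelial genes were higher, where 4.45% of all tested genes passed in either direction. Summed over the meningeal list, levels were 158 to 179 FPKM in KO7 and 56.5 to 79.5 FPKM in wild type, and the part of these cells in the Cxcr4 value was not tested. Against KO2, Lamp5 was lower in KO7, at 2.02 FPKM on average and 9.29 FPKM in KO2 (log2 change -1.82, adjusted p = 0.016).

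**Figure D4:**
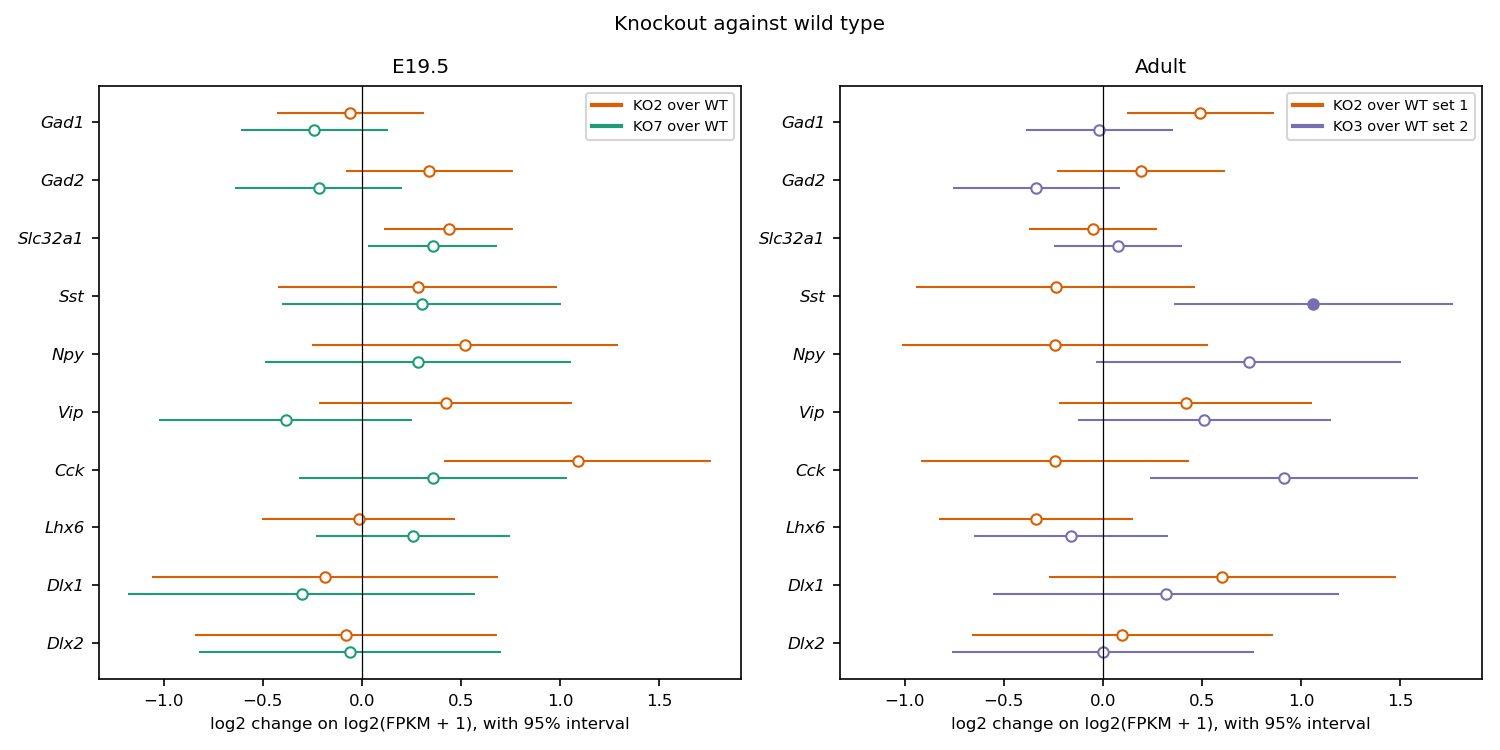
Log2 change from the limma fit on log2(FPKM + 1), knockout over wild type, with 95% intervals, at E19.5 (left) and in adults (right); filled points passed an adjusted p of 0.05. Sst in adult KO3 is the single filled point.

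In adult KO2 against wild-type set 1, 0 of 10 passed in limma, beside 0.154% of all tested genes, with 1 unadjusted p under 0.05. That gene was Gad1, at 167 and 118 FPKM in KO2 and 96.4 and 103 FPKM in set 1 (log2 change 0.49, 95% interval 0.12 to 0.86, adjusted p = 0.525). The groups did not overlap, and the higher KO2 value was that of replicate 1. Gad2 at 44.2 and 52.4 FPKM in KO2 overlapped with 36.5 and 48.4 FPKM in set 1. For the peptides the intervals were -0.94 to 0.47 for Sst, -1.01 to 0.53 for Npy, -0.22 to 1.06 for Vip and -0.92 to 0.43 for Cck, so changes of about 1 on the log2 scale were not resolved. No gene of the 4 interneuron lists passed here.

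Sst was the 1 gene of 10 that passed in adult KO3 against wild-type set 2, where 22.1% of all tested genes passed. It stood at 314 and 665 FPKM in KO3 and 207 and 231 FPKM in set 2 (log2 change 1.06, SE 0.32; limma adjusted p = 0.0388). The KO3 libraries differed more from each other than replicate 1 did from set 2. Without KO3 replicate 2 the change was 0.52 (adjusted p = 0.316), and the call was also lost without either set 2 library (adjusted p = 0.163 and 0.0966), under quantile scaling (0.38, adjusted p = 0.234), with no filter (adjusted p = 0.0788), in a fit of these libraries alone (adjusted p = 0.143) with the wild-type sets pooled (adjusted p = 0.216) and without the 3 libraries that stood apart (0.60, adjusted p = 0.315). KO3 replicate 2 also had the highest Cck (797 FPKM) and Vip (17.8 FPKM) and the lowest Gad2 (31.9 FPKM) of the adult libraries, and its Pcp2 of 372 FPKM was the highest of the series.

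None of the other KO3 peptide values passed. Cck was at 425 and 797 FPKM in KO3, against 290 and 327 FPKM in set 2 (log2 change 0.92, 95% interval 0.24 to 1.59, limma adjusted p = 0.0533). Npy was at 144.5 and 227 FPKM in KO3 and 105 and 112 FPKM in set 2 (0.74, adjusted p = 0.143). Without KO3 replicate 1, which leaves 1 KO3 library, the changes were 1.60 for Sst, 1.37 for Cck, 1.06 for Npy and -0.62 for Gad2. The KO3 change minus the KO2 change in adults passed in limma for 0 of the 10 genes, beside 0.0489% of all tested genes, with 2 unadjusted p under 0.05: Sst (1.30, adjusted p = 0.117) and Cck (1.16, adjusted p = 0.128). Without KO3 replicate 1 this difference was 1.84 for Sst, 1.61 for Cck, -0.66 for Gad1 and -0.81 for Gad2. In KO3 against set 2, 22.1% of all tested genes passed, so counts in the wider lists say little by themselves. Of 12 peptide genes 2 were higher (Sst and Grp, the second at 0.77, adjusted p = 0.0335). Of 21 calcium-binding, channel and surface markers 2 were higher and 4 lower. Those with the smallest p were all lower and are named next, while the 2 higher ones are not named. The lower markers included Erbb4, a neuregulin receptor gene (-1.20, adjusted p = 0.012), Nos1, the neuronal nitric oxide synthase gene (-1.63, adjusted p = 0.016), and Grin3a, an NMDA receptor subunit gene (-0.99, adjusted p = 0.0261). Of 26 lineage factors Nr2f1 was higher (0.80, adjusted p = 0.0171) and Prox1 lower (-0.96, adjusted p = 0.0425). Of 9 GABA genes Slc38a1, a glutamine transporter gene, was lower (-0.52, adjusted p = 0.0488). Nos1 was uneven in KO3, at 3.99 ± 3.34 FPKM (SD, n = 2), against 12.7 ± 1.57 FPKM in set 2. A fit of these libraries alone left 67 passing genes of the whole table. List genes other than the 10 were not followed there.

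The wild-type sets also differed from each other. Gad1 was at 160 and 136 FPKM in set 2, against 96.4 and 103 FPKM in set 1 (log2 change 0.56, SE 0.17; limma adjusted p = 0.0377), and Npy at 105 and 112 FPKM in set 2, against 314 and 198 FPKM in set 1 (-1.19, SE 0.35, adjusted p = 0.0341). These were 2 of the 10 genes, where 20.9% of all tested genes passed. Sst had a log2 change of -0.84 (adjusted p = 0.0847) and passed in the fit of these libraries alone (adjusted p = 0.0241) and without the 3 libraries that stood apart (-0.91, adjusted p = 0.0435). Slc32a1 passed after median-of-ratios scaling (-0.43, adjusted p = 0.0352) and without set 2 replicate 1 (-0.59, adjusted p = 0.0475). The Gad1 call was lost without any 1 of the 4 libraries (adjusted p of 0.067 to 0.183), and the Npy call without set 1 replicate 1, set 2 replicate 1 or set 2 replicate 2 (adjusted p of 0.116 to 0.217) under quantile scaling (adjusted p = 0.0757) and without the 3 libraries that stood apart (adjusted p = 0.0805).

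Cerebellar genes also differed between the wild-type sets. Of 8 tested Purkinje and cerebellar markers 5 were higher in set 2 and 1 lower: Pcp2 averaged 159 FPKM in set 2 and 0.268 FPKM in set 1, and Gabra6 51.0 FPKM in set 2, listed at 0 in both set 1 libraries. Over the list, which the abundant and not only cerebellar Pcp4 dominates, summed levels were 1008 to 1206 FPKM in set 2 and 1534 to 1623 FPKM in set 1. Ptf1a was listed at 0 in both sets and Pax2 in set 2. Calb1, of Purkinje cells and interneurons, was at 79.3 FPKM in set 2 and 35.2 FPKM in set 1 (limma adjusted p = 0.000762), and Pvalb ranged from 142 to 475 FPKM in KO3 and set 2 libraries, against 50.2 to 88.1 FPKM in KO2 and set 1 libraries. The part of cerebellar tissue in the Gad1 and Npy differences was not tested. Slc32a1 over Gad1 was 0.354 to 0.415 in the KO3 and set 2 libraries, against 0.678 and 0.791 in set 1, and adult KO2 lay across the range with 0.393 in replicate 1 and 0.640 in replicate 2.

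**Figure D5:**
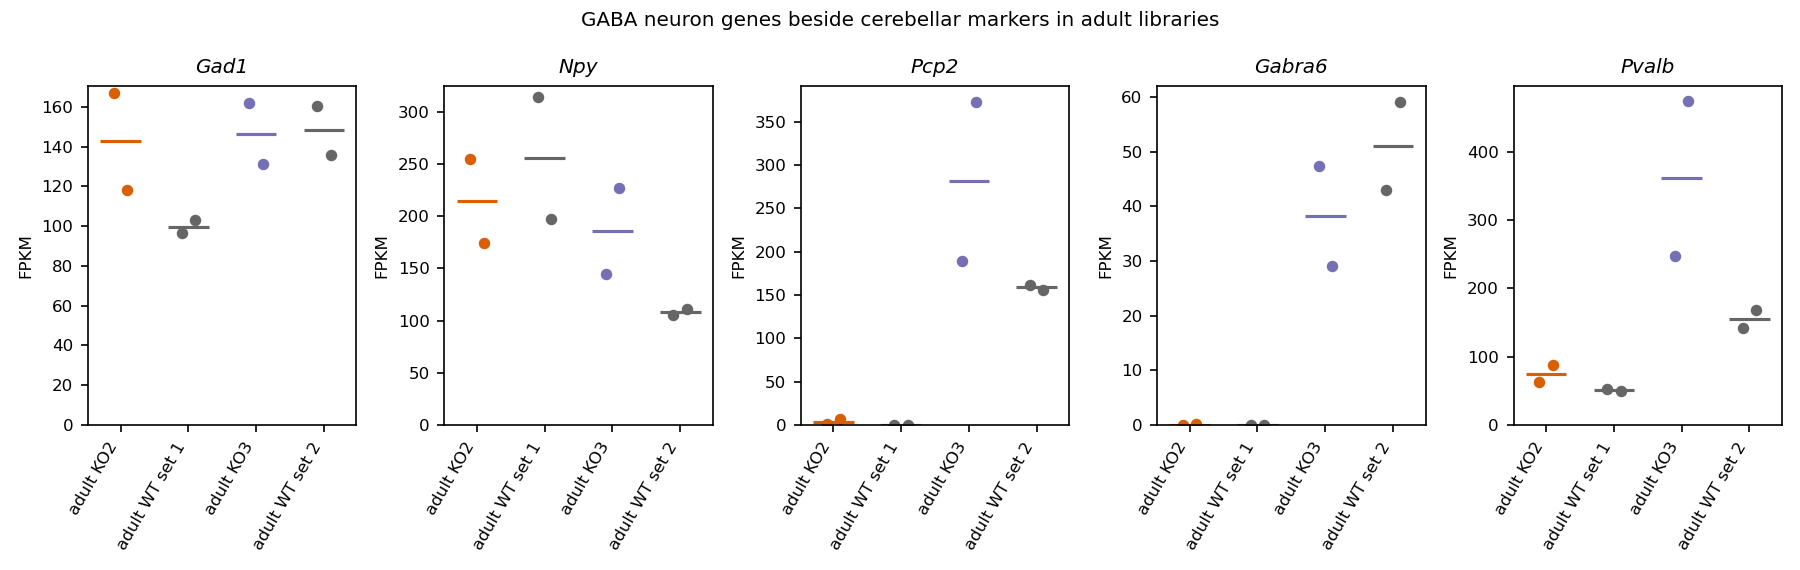
FPKM (linear axes from 0) of Gad1, Npy, Pcp2, Gabra6 and Pvalb in the 8 adult libraries; points are libraries and bars are means of 2. Pcp2 and Gabra6 were high in KO3 and wild-type set 2 and near 0 in KO2 and wild-type set 1.

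Across the 7 group means the 10 genes covered very different spans on the log2(FPKM + 1) scale, with Vip widest at 3.90, then Cck at 3.47 and Lhx6 at 2.42, and Slc32a1 narrowest at 0.75. For the 9 genes spanning at least 1, the nearest profiles among all tested genes were sought by root mean square distance over the 7 centred group means. Vip lay nearest to the synaptic vesicle fusion genes Snap25 (0.16) and Vamp1 (0.16), and Cck to Clu (0.15) and Cmtm5 (0.15); under 0.1% of tested genes (0.0838% and 0.0978%) lay within 0.25 of each. Lhx6 lay nearest to Actg1 (0.08) and Mpzl1 (0.10), and Dlx1 to Bcl11a (0.14) and 1810032O08Rik (0.14). Dlx2 was nearest to Bdh1 (0.06) and Kctd5 (0.08), Gad1 to Endod1 (0.07) and Ifitm10 (0.09), and Gad2 to Sik3 (0.06) and Rnf144b (0.07). Sst lay close to Mrps34 (0.08) and Npy nearest to Smdt1 (0.10) and Col16a1 (0.13). Between 1.24% and 4.47% of tested genes lay within 0.25 of these 7 genes, so such likeness was common.

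By the median over libraries, Cck, Sst and Npy were the most abundant of the 10 in adults and Sst and Npy at E19.5, but single groups departed from this order. Gad1 was above Npy in adult set 2 (160 and 136 FPKM for Gad1, 105 and 112 FPKM for Npy) and above Cck in E19.5 wild type (65.4 and 64.4 FPKM for Gad1, 50.9 and 51.9 FPKM for Cck). Median FPKM over the 8 adult libraries was 413 for Cck, 324 for Sst, 186 for Npy, 134 for Gad1, 62.8 for Slc32a1, 47.9 for Gad2, 10.9 for Vip, 6.14 for Dlx1, 3.72 for Lhx6 and 2.98 for Dlx2. Over the 6 E19.5 libraries it was 272 for Sst, 187 for Npy, 67.0 for Cck, 62.0 for Gad1, 53.9 for Slc32a1, 20.5 for Gad2, 18.9 for Lhx6, 16.7 for Dlx1, 10.95 for Dlx2 and 0.349 for Vip. In adults, neighbours in this order overlapped over libraries except Gad1 with Slc32a1 and Gad2 with Vip. At E19.5 they overlapped except Slc32a1 with Gad2 and Dlx2 with Vip. These overlaps are between libraries. Within single libraries Sst stayed above Npy, at ratios of 1.17 to 2.93, and Slc32a1 above Gad2, at 1.001 to 3.61. Cck over Sst crossed 1 in adults (0.909 to 1.77). Gad1 over Gad2 kept to 2.13 to 4.11 in all 14 libraries, and Dlx1 over Dlx2 to 1.36 to 3.11.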

How the data were processed

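Brain poly(A) RNA-seq libraries of mouse, 14 in 7 groups, were grouped by their titles. The authors deposited FPKM values in 1 table. The submitters' processing notes name CASAVA, the mm9 build, Cufflinks 2.2.1 and TopHat2 2.1.1, with no role or order. Annotation, filters, scaling and strand use are not stated there. A word left in the column headers reads FPKM in 10 of 14 columns, and the other 4 (adult KO3 and wild-type set 2) were taken as FPKM. A further 2 rows without a gene name were left out. Low values gave no whole-read steps (tried on 45 library pairs), so no depth or counting error could be derived. Each library had 12701 to 13398 genes at 1 FPKM or more.

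The filter of 1 FPKM in at least 2 libraries left 14322 genes, which were fitted on log2(FPKM + 1) in limma 3.58.1 (R 4.3.3, trend option, 2-sided, 7 group means over all 14 libraries, 7 residual degrees of freedom). Benjamini-Hochberg adjustment ran over all tested genes with a threshold of 0.05, and each adjusted p comes from limma. Fold changes on this scale understate changes of low genes. The procedure was tested on simulated data with independent noise and no regional or sex differences between libraries. The outcome is not given here and says nothing on such differences. Adult KO2 was compared with wild-type set 1 and adult KO3 with set 2, which share a form of deposit. The 10 genes, the lists and the tests were chosen with earlier results of these data known. Beyond the 10 genes, those named had the smallest p among passing genes of a list (up to 3 per list); the adult range of Pvalb, the regional markers and Xist were chosen after their values were seen. Not every gene that fits the rule is reported here. Promoter sequences are RefSeq's (GRCm38.p6), and all 10 symbols matched. Alternatives were a pseudocount of 0.1, no filter, median-of-ratios and quantile scaling, other sets of libraries, each library left out and a replicate block.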

Additional observations from a re-analysis of the deposited data

How the results depend on the processing

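Each alternative changed 1 choice, and the cause of a change was not tested. With 2 libraries a group and no known depth, changes of about 1 on the log2 scale were often not resolved. For wild type by stage 7 to 9 of the 10 genes passed under every setting, and for KO2 by stage 5 to 7. As reported, 183 genes of the whole table passed for E19.5 KO2 against wild type, 637 for KO7 against wild type, 806 for KO7 against KO2, 22 for adult KO2 against set 1, 3164 for KO3 against set 2, 2990 for set 2 against set 1, 9 for KO2 by stage against wild type by stage and 7 for the KO3 change minus the KO2 change.

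With a pseudocount of 0.1, 1 of the 10 genes passed in KO7 against wild type and 1 against KO2 (Vip in both), the KO2-by-stage difference had 21 genes, and Dlx2 in KO3 was 0.021. With no filter the counts were 391 for E19.5 KO2, 65 for adult KO2, 1751 for KO3 (0 of the 10) and 122 for the KO2-by-stage difference. Under quantile scaling they were 296 for E19.5 KO2 (1 of the 10, Cck), 57 for the KO2-by-stage difference and 25 for KO3 minus KO2; 0 of the 10 passed in KO3 and 1 between the wild-type sets, with Lhx6 at 0.02 in E19.5 KO2 and Slc32a1 at -0.174 and Dlx2 at 0.117 in KO3. Quantile scaling also moved the share of calls that were higher to 47.1% in KO3, against 62.9% as deposited, to 52.6% between the sets, against 32.8%, and to 76% for KO3 minus KO2, against 100%. Median-of-ratios scaling gave 1 gene for KO3 minus KO2, 37.5% higher calls for the KO2-by-stage difference, against 55.6%, and 0.003 for Dlx2 in KO3.

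Fits of the compared libraries alone gave 602 genes for E19.5 KO2 (2 of the 10), 1228 for KO7 against wild type, 1307 against KO2 (2 of the 10), 8 for adult KO2, 67 for KO3 (0 of the 10), 321 for the KO2-by-stage difference and 0 for KO3 minus KO2. With the wild-type sets pooled the counts were 38 for E19.5 KO2, 145 and 241 for KO7 against wild type and KO2, 7 for adult KO2, 3 for the KO2-by-stage difference and 898 for KO3 minus KO2, with 0 of the 10 in KO3. Adult KO2 values were then 0.165 for Slc32a1, 0.182 for Sst, 0.356 for Npy and 0.104 for Cck, and KO3 values 0.263 for Gad1 and -0.14 for Slc32a1. Without the 3 libraries that stood apart from their groups (set 2 replicate 2, adult KO3 replicate 2, E19.5 KO2 replicate 1), the counts were 73 for E19.5 KO2, 1326 and 413 for KO7 against wild type and KO2, 107 for KO3 (0 of the 10) and 39 for KO3 minus KO2. Sst was then -0.129 and Npy -0.149 in KO2 by stage; Gad1 was 0.003, Lhx6 0.073 and Dlx2 0.169 in E19.5 KO2; Gad1 was 0.014 and Slc32a1 -0.022 in KO3. With set 2 as the adult wild type, an alternative chosen after seeing the data, Sst was -0.211 and Npy -0.375 by stage.

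Replicate numbers were not taken to pair the libraries, since no label says so and not every pair's deviations correlated: of 21 group pairs, 8 had deviations that correlated above 0.1, over a range of -0.333 to 0.233. Of the 6 pairs of adult groups alone 5 did, among them KO2 with set 1 (0.233) and KO3 with set 2 (0.127), and Hcrt, Avp and Pmch, of the hypothalamus, were higher in replicate 2 of all 4 adult groups. With the number as a replicate block, KO3 minus KO2 had 18 genes, and no count of the 10 genes changed (8 by stage in wild type, 7 in KO2, 1 in KO3, 2 between the sets and 0 elsewhere).

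Leaving out each library in turn gave 6 to 68 genes for E19.5 KO2, 47 to 272 and 174 to 239 for KO7 against wild type and KO2, 1 to 30 for adult KO2, 8 to 6773 for KO3 (0 to 4 of the 10), 1265 to 1670 between the sets (0 to 1 of the 10), 2 to 20 for the KO2-by-stage difference and 1 to 5510 for KO3 minus KO2 (0 to 4 of the 10). Directions turned as follows. KO2 by stage ranged over -0.129 to 0.347 for Sst and -0.216 to 0.33 for Npy. E19.5 KO2 ranged over -0.118 to 0.003 for Gad1, -0.438 to 0.405 for Lhx6, -0.614 to 0.243 for Dlx1 and -0.463 to 0.304 for Dlx2. KO7 against wild type ranged over -0.21 to 0.776 for Npy, -0.164 to 0.679 for Lhx6, -0.733 to 0.125 for Dlx1 and -0.445 to 0.322 for Dlx2. Adult KO2 ranged over -0.007 to 0.391 for Gad2, -0.209 to 0.107 for Slc32a1, -0.574 to 0.093 for Npy, -0.026 to 0.861 for Vip, -0.558 to 0.075 for Cck, -0.127 to 1.334 for Dlx1 and -0.398 to 0.595 for Dlx2. KO3 ranged over -0.169 to 0.132 for Gad1, -0.084 to 0.235 for Slc32a1 and -0.379 to 0.378 for Dlx2.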
